A study of Mus musculus with 9 samples.

Results

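Green tea polyphenols added to phthalate were compared with phthalate alone in mouse liver, in 6 of the series' 9 messenger RNA libraries. In DEHP_GTP, the mice had received di(2-ethylhexyl) phthalate (DEHP), a plasticizer, at 1500 mg/kg/d in corn oil, together with 70 mg/kg of green tea polyphenols (GTP). In DEHP, they had received the same dose of the phthalate in corn oil without the polyphenols. Control mice had received distilled water and no oil. All mice were of the strain C57BL/6J and were dosed by gavage for 8 weeks, and each of the 3 groups had 3 libraries. Neither sex nor age is given in the labels. Whether each library stands for its own mouse is not given either, so the p-values refer to variation among these samples, some or all of which may be technical. The phthalate and the oil were common to DEHP_GTP and DEHP. Mice given only oil or only polyphenols, which the design also includes, were not analysed here, so an effect of the polyphenols without the phthalate was not measured. Of 18148 gene symbols, 10388 had a level of at least 1 in at least 3 of the 9 libraries and were tested. A level is the authors' deposited signal, of the FPKM or TPM kind, and a difference is DEHP_GTP minus DEHP on log2(level + 1), on which changes of low genes are understated.

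Several systems of the liver bear on this comparison. Phthalates act in rodent liver largely through PPARA, a nuclear receptor that switches on the oxidation of fatty acids in peroxisomes, mitochondria and the endoplasmic reticulum, and through CAR, which induces cytochromes P450 of drug metabolism. Green tea polyphenols, mainly catechins, are studied as antioxidants, and NRF2 is the transcription factor that induces antioxidant and conjugating enzymes. Pulses of growth hormone, read in hepatocytes by the receptor, JAK2 and STAT5, set the male or female pattern of liver genes. A circadian clock, in which BMAL1 (Arntl) and CLOCK drive their own repressors PER, CRY and REV-ERB, paces much of liver metabolism.

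The addition of the polyphenols gave no gene that passed the test. With limma, 0 of 10388 genes (0%) were called at an adjusted p under 0.05, and the smallest adjusted p was 0.0761. At an unadjusted p under 0.05 there were 1524 genes (14.7%), of which 608 (5.85%) were higher and 916 (8.82%) lower in DEHP_GTP. Without its trend and robust options limma called 0 as well, with 1538 genes at an unadjusted p under 0.05. For scale, the same model called 2248 genes (21.6%) higher and 406 (3.91%) lower in DEHP against Control, and 1006 (9.68%) higher and 79 (0.76%) lower in DEHP_GTP against Control. These comparisons share libraries, so a gene's values in them are not independent. The groups did not overlap, with all 3 DEHP_GTP libraries on 1 side of all 3 DEHP libraries, for 924 genes (8.89%) that were higher and 1083 (10.4%) that were lower in DEHP_GTP. Such genes are called separate below. All differences described from here on are levels that did not pass the test over all genes, and list counts are over tested members only. The lists were chosen with earlier results of these data known, so their counts are descriptions and no independent support. Counts of separate members in a list are to be read beside the shares over all genes, 8.89% higher and 10.4% lower. Likewise, list medians against Control are to be read beside those of all genes, 0.12 in DEHP and 0.11 in DEHP_GTP.

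The libraries themselves differed in ways that touch some results. Library totals were between 789076 and 801286 in DEHP_GTP, between 810583 and 863300 in DEHP and between 819494 and 857834 in Control, so the DEHP_GTP libraries had the lowest totals of the 9. The 22 symbols of the major urinary proteins (Mup), abundant secreted pheromone carriers, held 11.6%, 6.53% and 7.09% of the total in DEHP_GTP, against 2.37%, 8.49% and 5.62% in DEHP and 16.1% to 20.3% in Control. On the first principal component, which held 55.2% of the variance, the DEHP_GTP libraries lay at -3.46, 13.89 and 6.39 and the DEHP libraries at 28.57, 13.02 and 20.70, with Control between -27.01 and -25.77. DEHP_GTP replicate 2 and DEHP replicate 2 were therefore next to each other on it. The Control libraries were not alike in fat cell transcripts. Adipoq (adiponectin), Plin1 and Ucp1 were listed at 0 in all DEHP_GTP and DEHP libraries and in Control replicate 3. In Control replicates 1 and 2 Adipoq was at 33.7 and 61.0. The labels give no sequencing batch or date, and read depth is unknown. In whole tissue, fewer cells of a type and less RNA per cell cannot be told apart.

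**Figure D1:**
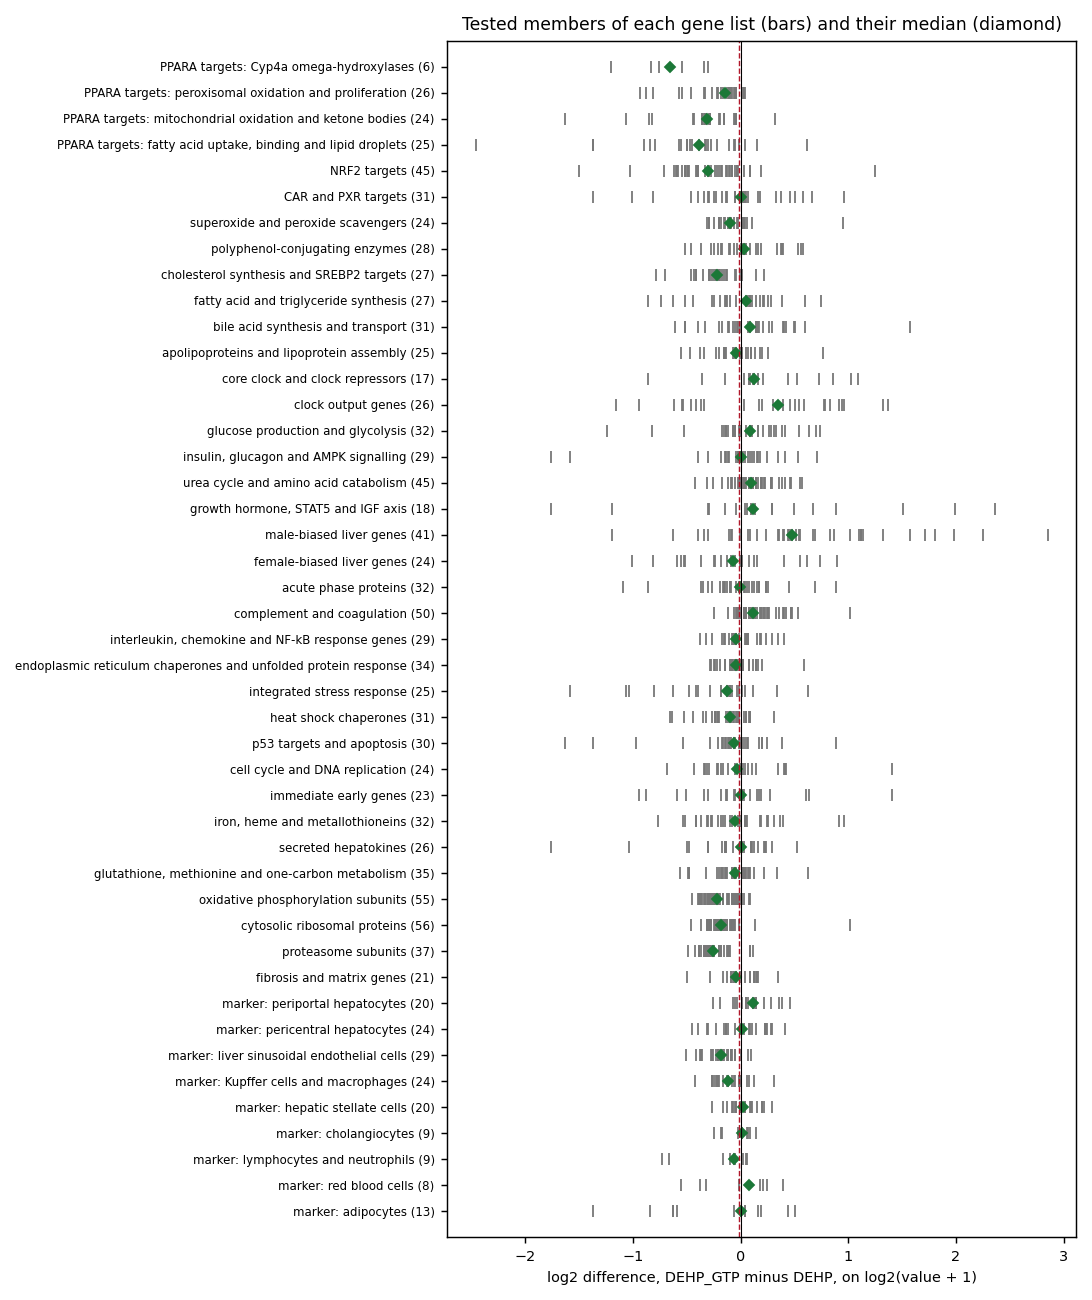
Each bar is 1 tested gene at its log2 difference, DEHP_GTP minus DEHP, on log2(level + 1), by gene list with the number of tested members in brackets. The diamond is the list's median and the dashed line the median of all 10388 genes (-0.01). Medians lie lowest for the Cyp4a enzymes (-0.65) and highest for male-biased genes (0.47).

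Feedback and target genes of growth hormone signalling held several of the largest differences. Of 20 genes listed for the growth hormone, STAT5 and IGF axis, 18 were tested. In 6 the groups did not overlap and DEHP_GTP was higher, in 2 it was lower, beside 8.89% and 10.4% of all genes. The list's median was 0.11. The 6 were Cish, Socs2, Onecut1, Igfals, Egfr and Igfbp4, and the 2 were Igfbp1 and Stat5b, the last named outside the rule for named genes.

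Cish encodes a suppressor of cytokine signalling that STAT5 induces and that dampens the receptor in turn. Its level in replicates 1, 2 and 3, the order used throughout, was 20.7, 15.1 and 3.82 in DEHP_GTP livers, against 1.27, 1.07 and 1.64 in DEHP livers and 11.2, 9.54 and 5.93 in Control livers. All 3 DEHP_GTP libraries were above all DEHP libraries. DEHP_GTP replicates 1 and 2 were also above every Control library, and replicate 3 was below every Control library. The estimate was the largest of the axis (log2 difference 2.36, SE 0.53, limma adjusted p = 0.145). Without DEHP_GTP replicate 3 it was called (log2 difference 3.01, limma adjusted p = 0.00607).

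The promoter of Cish, from 250 bases before to 50 after its transcription start, is shown because STAT5 is the known activator of this gene. It comes from RefSeq on GRCm38.p6 and was matched by symbol, since the submitters' processing notes name the older build mm9. It lies at chr9:107296409-107296708 on the + strand. Capitals mark 2 copies of the STAT5 element TTCNNNGAA, beginning at the start site itself and 11 bases after it.
Cish: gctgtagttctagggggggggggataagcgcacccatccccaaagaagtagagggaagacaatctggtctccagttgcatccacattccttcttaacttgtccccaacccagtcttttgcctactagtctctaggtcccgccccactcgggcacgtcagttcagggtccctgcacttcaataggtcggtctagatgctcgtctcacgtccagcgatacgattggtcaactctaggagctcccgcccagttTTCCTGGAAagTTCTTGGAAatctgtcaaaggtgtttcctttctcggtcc
Both strands were searched, and the 2 copies do not overlap. Of the 17 axis genes with a RefSeq promoter of this length, 5 (29.4%) held the element, against 683 of 8405 (8.13%) of all tested genes with one. The share was similar for acute phase proteins (29.6%) and for complement and coagulation genes (26.3%). A match of letters is a description and shows no binding.

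Other members of the axis had like profiles across libraries. Socs2, another suppressor in the same feedback loop, was at 14.7, 14.1 and 4.70 in DEHP_GTP livers, against 2.64, 2.26 and 4.01 in DEHP livers and 5.65, 9.54 and 11.6 in Control livers (log2 difference 1.50, SE 0.43, limma adjusted p = 0.187). Onecut1, the hepatocyte transcription factor HNF6, was at 12.4, 12 and 1.71 in DEHP_GTP livers, against 1.09, 0.89 and 0.91 in DEHP livers and 10.0, 7.72 and 4.75 in Control livers (log2 difference 1.99, SE 0.61, limma adjusted p = 0.22). In both genes DEHP_GTP replicate 3 was the low library of its group, near the DEHP level, and replicates 1 and 2 were above the highest Control library. Onecut1 was called without DEHP_GTP replicate 3 (log2 difference 2.75, limma adjusted p = 0.00607). Igfals, which holds circulating IGF1 in its ternary complex, was at 61.0, 53 and 40.3 in DEHP_GTP livers, against 34.8, 38.8 and 33.6 in DEHP livers and 58.5, 64.3 and 66.3 in Control livers (log2 difference 0.50, SE 0.13, limma adjusted p = 0.15). Egfr, the epidermal growth factor receptor, was at 57.7, 43.0 and 42.6 in DEHP_GTP livers, against 22.8, 38.0 and 28.8 in DEHP livers and 71.7, 73.4 and 84.2 in Control livers, so that DEHP_GTP was higher than DEHP without reaching Control (log2 difference 0.68, SE 0.18, limma adjusted p = 0.152). Igfbp1, an IGF-binding protein that insulin represses, went the other way, at 12.3, 13.9 and 48.4 in DEHP_GTP livers, against 91.8, 48.9 and 81.9 in DEHP livers and 11.4, 41.7 and 33.8 in Control livers (log2 difference -1.76, SE 0.67, limma adjusted p = 0.299). Its DEHP_GTP replicate 3 was level with DEHP replicate 2.

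The receptor, its kinase and the hormone gene of the axis did not separate. Ghr, the growth hormone receptor, was at 207, 166 and 183 in DEHP_GTP livers, against 139.9, 203 and 167 in DEHP livers (log2 difference 0.13), and Jak2 differed by 0.05. Igf1, the main hormone made under growth hormone, was at 57.6, 50.6 and 55.9 in DEHP_GTP livers, against 47.9, 53.6 and 51.9 in DEHP livers and 73.5, 75.3 and 79.6 in Control livers (log2 difference 0.09). For Ghr, Jak2 and Igf1 the groups overlapped. Stat5b was at 7.09, 7.84 and 7.61 in DEHP_GTP livers, against 10.0, 8.47 and 9.88 in DEHP livers (log2 difference -0.29), lower in every DEHP_GTP library. Bcl6, a repressor that opposes STAT5 in male liver, was at 3.58, 2.24 and 12.1 in DEHP_GTP livers, against 8.94, 21.7 and 9.28 in DEHP livers (log2 difference -1.19), with overlap.

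**Figure D2:**
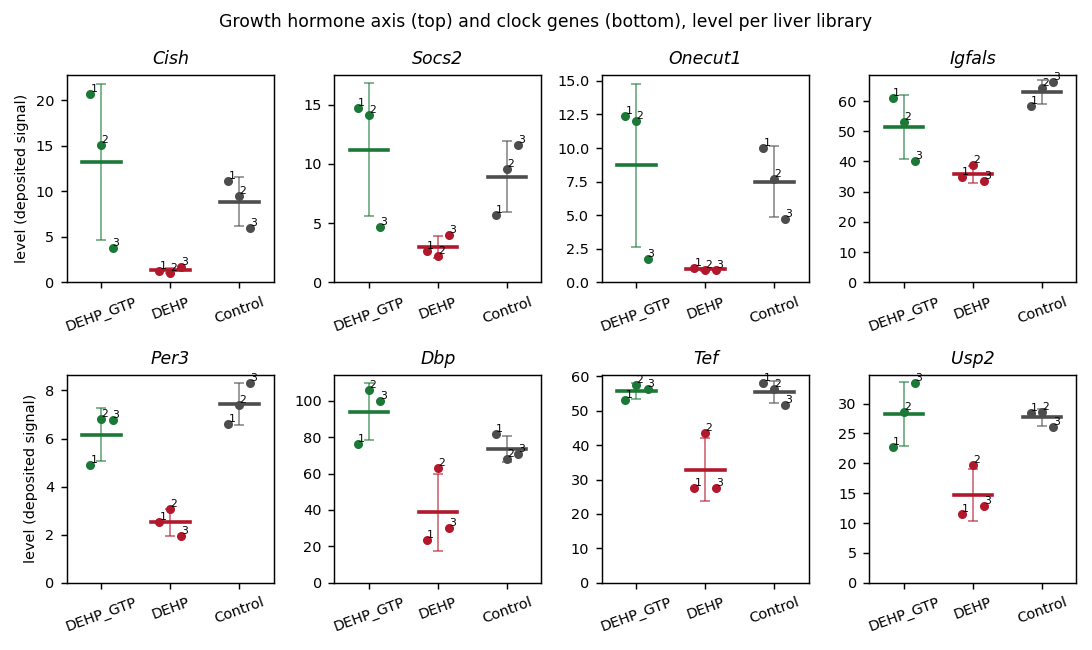
Deposited signal of 4 growth hormone axis genes (top) and 4 clock genes (bottom) in each library, with the replicate number beside each point, the group mean as a bar and its SD as whiskers (n = 3). DEHP_GTP replicate 3 is low in Cish (3.82), Socs2 (4.70) and Onecut1 (1.71), whereas DEHP replicate 2 is the highest of its group in Dbp (63.0), Tef (43.4) and Usp2 (19.7).

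Male-biased liver genes, which growth hormone pulses regulate, had the highest list median. Of 45 listed, 41 were tested, 32 were above 0 and 9 below, with a median of 0.47 and a range of -1.19 to 2.85. Only 3 had groups that did not overlap with DEHP_GTP higher, and 1 with it lower, beside 8.89% and 10.4% of all genes. Mup7 was at 7391, 552 and 743 in DEHP_GTP livers, against 19.4, 1149.6 and 344 in DEHP livers and 27121, 24903 and 27857 in Control livers, and its log2 difference of 2.85 had an SE of 1.65 (limma adjusted p = 0.478). Selenbp2, a selenium-binding protein, was at 237, 36.9 and 77.8 in DEHP_GTP livers, against 5.95, 69.2 and 22.6 in DEHP livers and 577, 567 and 477 in Control livers (log2 difference 1.98). Hsd3b5, a keto-reductase of male mouse liver, was at 46.3, 1.63 and 3.34 in DEHP_GTP livers, against 0.24, 11.4 and 1.25 in DEHP livers and 95.1, 79.7 and 63.8 in Control livers (log2 difference 1.32). In all 3 of these genes DEHP_GTP replicate 1 was the highest of the 6 libraries, DEHP replicate 1 the lowest, and DEHP replicate 2 above at least 1 DEHP_GTP library. Reads of near-identical copies such as the Mup, Serpina1 and Cyp4a genes may have been split between them, so values of single copies are uncertain. Mup9, which is not in the list, had separate groups, at 65.4, 34.8 and 26.6 in DEHP_GTP livers, against 7.56, 8.92 and 5.18 in DEHP livers and 183, 77.1 and 228 in Control livers (log2 difference 2.32, SE 0.48, limma adjusted p = 0.131). Without DEHP replicate 2, 20 male-biased genes were at an unadjusted p under 0.05 with DEHP_GTP higher, against 4 with all libraries, and the median was 0.68. Without DEHP replicate 1 there were 2 such genes and the median was 0.21, and without DEHP_GTP replicate 1 there were 2 and it was 0.34. Hsd3b5 differed by 0.0514 without DEHP_GTP replicate 1 and by 0.623 without DEHP replicate 1. Over all alternatives the log2 difference of Mup7 was between 1.20 and 4.11, and that of Selenbp2 between 1.13 and 2.80. Of 39 female-biased genes 24 were tested, with 9 above 0, 15 below and a median of -0.07.

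Many repressors of the clock and its D-box factors were at higher levels in DEHP_GTP livers than in DEHP livers, and its activators at lower ones, without passing the test. Of 20 genes listed as core clock and clock repressors, 17 were tested. The groups did not overlap for 7, all with DEHP_GTP higher, among them Per3, Nr1d2, Bhlhe40, Cry2, Per2 and Ciart, of which Per2 and Ciart are named outside the rule. Of 26 tested clock output genes, 7 were separate and higher (Dbp, Tef, Usp2, Upp2, Wee1, Alas1 and Por) and 4 separate and lower. Alas1 and Por also stand in the list of CAR and PXR targets. The medians were 0.12 and 0.35, beside -0.24 and -0.54 in DEHP against Control and 0.11 and -0.12 in DEHP_GTP against Control. Over all genes the medians against Control were 0.12 in DEHP and 0.11 in DEHP_GTP. In DEHP_GTP against Control the core clock median was thus level with that of all genes. The labels do not give the hour of liver collection.

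Per3, a clock repressor of the period family, was among the 5 genes with the smallest unadjusted p. It was at 4.89, 6.80 and 6.79 in DEHP_GTP livers, against 2.53, 3.07 and 1.94 in DEHP livers and 6.60, 7.38 and 8.33 in Control livers (log2 difference 1.03, SE 0.15, limma adjusted p = 0.0761). Every DEHP_GTP library was above every DEHP library, and replicates 2 and 3 lay inside the Control range. Per2 was at 5.44, 8.37 and 7.09 in DEHP_GTP livers, against 4.45, 4.18 and 1.91 in DEHP livers and 8.16, 9.43 and 10.3 in Control livers (log2 difference 0.86, SE 0.24). Ciart, a repressor that binds the BMAL1 and CLOCK complex, was at 21.9, 28.6 and 36.6 in DEHP_GTP livers, against 9.01, 20.0 and 11.7 in DEHP livers and 31.8, 24.8 and 23.1 in Control livers (log2 difference 1.09, SE 0.29). For both genes the lowest DEHP_GTP library was replicate 1, and for Ciart DEHP replicate 2 came close to it. Bhlhe40, a further repressor, differed by 0.73 (SE 0.16), Nr1d2 (REV-ERB beta) by 0.52 (SE 0.12) and Cry2 by 0.44 (SE 0.12).

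The activators lay on the other side. Arntl, which encodes BMAL1, was at 1.7, 0.76 and 0.78 in DEHP_GTP livers, against 4.19, 1.11 and 3.59 in DEHP livers and 0.66, 1.02 and 0.94 in Control livers (log2 difference -0.86, SE 0.32), and its partner Clock at 2.59, 2.15 and 2.16 in DEHP_GTP livers, against 3.63, 2.55 and 3.60 in DEHP livers and 1.95, 1.91 and 1.62 in Control livers (log2 difference -0.36, SE 0.12). DEHP replicates 1 and 3 were high in both, and DEHP replicate 2 lay inside the DEHP_GTP range. Nr1d1 (REV-ERB alpha), whose level follows the hour of day closely, did not share the pattern of its paralogue. It was at 47.6, 44.7 and 48.5 in DEHP_GTP livers, against 38.3, 51.7 and 71.2 in DEHP livers and 17.4, 15.8 and 13.1 in Control livers (log2 difference -0.15), above Control in both phthalate groups. Per1 and Cry1 differed by 0.03 and 0.17, with overlap.

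The promoters of Per3 and Ciart are shown because they carry elements through which the clock drives its own genes. Both come from RefSeq on GRCm38.p6, matched by symbol, and are written on the gene's strand, 5′ to 3′. Per3, at chr4:151044616-151044915 on the - strand, holds 2 copies of the D-box TTATGNAA in capitals, the site of the PAR bZIP factors DBP, TEF and HLF, beginning 205 and 158 bases before the start. Ciart, at chr3:95882179-95882478 on the - strand, holds 3 copies of the E-box CACGTG in capitals, the site of BMAL1 and CLOCK, beginning 116, 58 and 44 bases before the start.
Per3: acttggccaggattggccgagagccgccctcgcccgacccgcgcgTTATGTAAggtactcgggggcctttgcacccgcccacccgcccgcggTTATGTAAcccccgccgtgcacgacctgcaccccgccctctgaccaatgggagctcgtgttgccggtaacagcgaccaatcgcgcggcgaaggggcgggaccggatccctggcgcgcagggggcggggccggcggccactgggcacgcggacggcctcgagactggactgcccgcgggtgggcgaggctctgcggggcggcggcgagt
Ciart: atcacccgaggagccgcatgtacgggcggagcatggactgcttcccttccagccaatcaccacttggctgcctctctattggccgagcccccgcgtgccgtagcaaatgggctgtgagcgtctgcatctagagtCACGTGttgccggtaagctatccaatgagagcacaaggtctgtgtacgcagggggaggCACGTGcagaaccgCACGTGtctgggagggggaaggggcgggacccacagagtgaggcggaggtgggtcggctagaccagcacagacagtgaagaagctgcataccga
On either strand, the D-box was in 2 of 12 core clock promoters (16.7%), 2 of 25 clock output promoters (8%) and 236 of 8405 promoters of all tested genes (2.81%). The E-box was in 3 of 12 (25%), 5 of 25 (20%) and 1024 of 8405 (12.2%). Neither was particular to clock genes. The D-box was in 25% of female-biased, 22.6% of male-biased and 20% of CAR and PXR target promoters. For the E-box the share was 30% in genes of fatty acid uptake, binding and lipid droplets and 25% in p53 and apoptosis genes. The capitals in each promoter do not overlap.

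The D-box factors themselves, and genes that follow the clock in liver, had a like profile. Dbp was at 76.1, 106 and 99.7 in DEHP_GTP livers, against 23.3, 63.0 and 30.1 in DEHP livers and 81.6, 68.1 and 70.6 in Control livers (log2 difference 1.37, SE 0.33, limma adjusted p = 0.147). Tef was at 53.2, 57.6 and 56.3 in DEHP_GTP livers, against 27.5, 43.4 and 27.5 in DEHP livers and 58.1, 56.3 and 51.8 in Control livers (log2 difference 0.78, SE 0.15, limma adjusted p = 0.107). Usp2, a ubiquitin protease under clock control, was at 22.8, 28.6 and 33.5 in DEHP_GTP livers, against 11.5, 19.7 and 12.9 in DEHP livers and 28.4, 28.6 and 26.1 in Control livers (log2 difference 0.91, SE 0.19, limma adjusted p = 0.122). In all 3 of them DEHP replicates 1 and 3 were low and DEHP replicate 2 lay between them and DEHP_GTP. Upp2, a uridine phosphorylase, was at 541, 517 and 596 in DEHP_GTP livers, against 221, 422 and 316 in DEHP livers and 509.8, 484 and 483 in Control livers (log2 difference 0.83, SE 0.19, limma adjusted p = 0.129), and Wee1, a cell cycle kinase, at 3.82, 4.84 and 4.34 in DEHP_GTP livers, against 1.52, 3.36 and 0.93 in DEHP livers and 4.91, 5.93 and 6.09 in Control livers (log2 difference 0.94, SE 0.25, limma adjusted p = 0.162). The members that were separate and lower were Tsc22d3, Slc45a3, Nfil3 and Ypel2, of which the last 3 are named outside the rule. Tsc22d3, the glucocorticoid-induced leucine zipper, was at 24.4, 34.4 and 56.4 in DEHP_GTP livers, against 80.4, 87.9 and 77.9 in DEHP livers and 44.6, 55.6 and 54.0 in Control livers (log2 difference -1.16, SE 0.25, limma adjusted p = 0.129), and Nfil3, a repressor at D-boxes, at 11.5, 8.98 and 9.94 in DEHP_GTP livers, against 18.1, 12.7 and 14.9 in DEHP livers and 6.21, 8.09 and 9.30 in Control livers (log2 difference -0.53).

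Clock genes were called when DEHP replicate 2 was left out. In Dbp, Tef and Arntl that library was the DEHP library nearest DEHP_GTP. Leaving it out therefore widens these differences by construction, and the calls are no separate support. Without it, limma called Per3, Bhlhe40, Nr1d2 and Ciart higher and Arntl lower in the core list, and Tef, Dbp, Wee1, Usp2 and Upp2 higher in the output list. The log2 differences were then 0.99 for Tef (limma adjusted p = 0.0031), 1.77 for Dbp (limma adjusted p = 0.0059) and -1.26 for Arntl (limma adjusted p = 0.0324). The percentage of all genes called in that setting was 0.828%.

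Targets of PPARA were at lower levels in DEHP_GTP than in DEHP for most members. Against Control, the median of each of 4 lists was above that of all genes in both phthalate groups. Of the 6 Cyp4a omega-hydroxylases, which oxidize the far end of fatty acids, 0 were above 0 and the median was -0.65, but the groups did not separate for any. Over the peroxisomal list (26 tested of 29) 3 were above 0 and 23 below, 5 of them separate, with a median of -0.14. The separate and lower share over all genes was 10.4%. In the mitochondrial and ketone body list (24 of 27) 1 was above and 23 below, 11 of them separate, with a median of -0.31. For fatty acid uptake, binding and lipid droplets (25 of 27) 3 were above and 22 below, 7 of them separate, with a median of -0.39. In DEHP against Control these 4 medians were 3.35, 0.54, 0.74 and 0.68, and in DEHP_GTP against Control 2.82, 0.37, 0.48 and 0.38.

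Cyp4a14, a classic PPARA target, was at 1727, 3743 and 2088 in DEHP_GTP livers, against 5717, 3593 and 3679 in DEHP livers and 109, 146 and 95.5 in Control livers (log2 difference -0.83, SE 0.31, limma adjusted p = 0.283). Ehhadh, the bifunctional enzyme of peroxisomal beta-oxidation, was at 958, 2027 and 1039 in DEHP_GTP livers, against 3996, 1916 and 1852 in DEHP livers and 78.6, 74.2 and 84.0 in Control livers (log2 difference -0.94, SE 0.37, limma adjusted p = 0.296). In both, DEHP replicate 1 was the high library and DEHP_GTP replicate 2 was above DEHP replicates 2 and 3, so the groups overlapped. Crot, which hands shortened acyl groups from peroxisomes to carnitine, was separate, at 128, 150.3 and 113 in DEHP_GTP livers, against 301, 214 and 213 in DEHP livers and 82.7, 71.9 and 59.6 in Control livers (log2 difference -0.88, SE 0.17, limma adjusted p = 0.102). Crot was thus lower in DEHP_GTP than in DEHP and still above every Control library. Acot8, a peroxisomal thioesterase, was at 17.2, 23.4 and 18.1 in DEHP_GTP livers, against 35.3, 25.9 and 26.0 in DEHP livers (log2 difference -0.54), Hsd17b4 differed by -0.34 and the thiolase Acaa1b by -0.81, all with separate groups.

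Mitochondrial genes showed 1 member in the other direction. Cpt1a, the carnitine palmitoyltransferase that admits fatty acids to mitochondria, was at 80.3, 96.6 and 97.8 in DEHP_GTP livers, against 73.9, 72.6 and 72.5 in DEHP livers and 85.2, 91.1 and 83.3 in Control livers (log2 difference 0.32, SE 0.09, limma adjusted p = 0.152), so it was lowest in DEHP. Its partners had the opposite order. Cpt2 was at 79.8, 78.2 and 73.5 in DEHP_GTP livers, against 118, 84.4 and 97.8 in DEHP livers and 67.7, 69.1 and 63.7 in Control livers (log2 difference -0.36, SE 0.11, limma adjusted p = 0.184), and the carrier Slc25a20 had a log2 difference of -0.43 (SE 0.14). Pdk4, a kinase that spares glucose by braking pyruvate oxidation, was separate too, at 1.02, 1.04 and 1.33 in DEHP_GTP livers, against 3.75, 1.99 and 2.71 in DEHP livers and 1.90, 5.92 and 0.70 in Control livers (log2 difference -0.82, SE 0.46). Acot2, a mitochondrial thioesterase and 1 of the 8 lowest named genes, was at 3.93, 11.4 and 6.63 in DEHP_GTP livers, against 44.0, 12.3 and 22.0 in DEHP livers and 1.94, 2.26 and 2.17 in Control livers (log2 difference -1.63, SE 0.47, limma adjusted p = 0.194), and its cytosolic neighbour Acot1 at 42.8, 79.2 and 49.2 in DEHP_GTP livers, against 275, 110.1 and 97.8 in DEHP livers and 17.6, 23.1 and 22.0 in Control livers (log2 difference -1.37, SE 0.41, limma adjusted p = 0.204). Acot1 and Acot2 are near-identical copies, so how reads were divided between them is uncertain.

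Plin2, the coat protein of lipid droplets, was at 105, 123 and 119 in DEHP_GTP livers, against 204, 131 and 195 in DEHP livers and 104, 91.6 and 95.2 in Control livers (log2 difference -0.58, SE 0.15, limma adjusted p = 0.149). The groups were separate, with DEHP replicate 2 near the DEHP_GTP level, and Plin2 was called without that library (log2 difference -0.78, limma adjusted p = 0.0171). Aldh3a2, which clears fatty aldehydes, differed by -0.46 and Acsl1, which activates fatty acids, by -0.32, both separate. Mogat1, a monoacylglycerol acyltransferase of triglyceride synthesis, was at 12.2, 15.3 and 12 in DEHP_GTP livers, against 27.3, 18.4 and 29.7 in DEHP livers and 1.59, 1.67 and 0.82 in Control livers (log2 difference -0.86, SE 0.20, limma adjusted p = 0.131). Dgat2, the last enzyme of that synthesis, was higher, at 258, 248 and 273 in DEHP_GTP livers, against 195, 245 and 203 in DEHP livers (log2 difference 0.28, SE 0.10, limma adjusted p = 0.224). Scd1 and Fasn, enzymes of desaturation and fatty acid synthesis, overlapped (log2 differences -0.25 and 0.09). Over 27 tested genes of cholesterol synthesis 3 were above 0 and 24 below with a median of -0.22, but 1 was separate, Tm7sf2 (-0.25).

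Single libraries moved the size of the PPARA lists. The Cyp4a median was -0.91 without DEHP_GTP replicate 2 and -0.49 without DEHP replicate 1. The mitochondrial median was -0.40 and -0.22 in the same settings, with 16 and 5 members lower at an unadjusted p under 0.05.

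**Figure D3:**
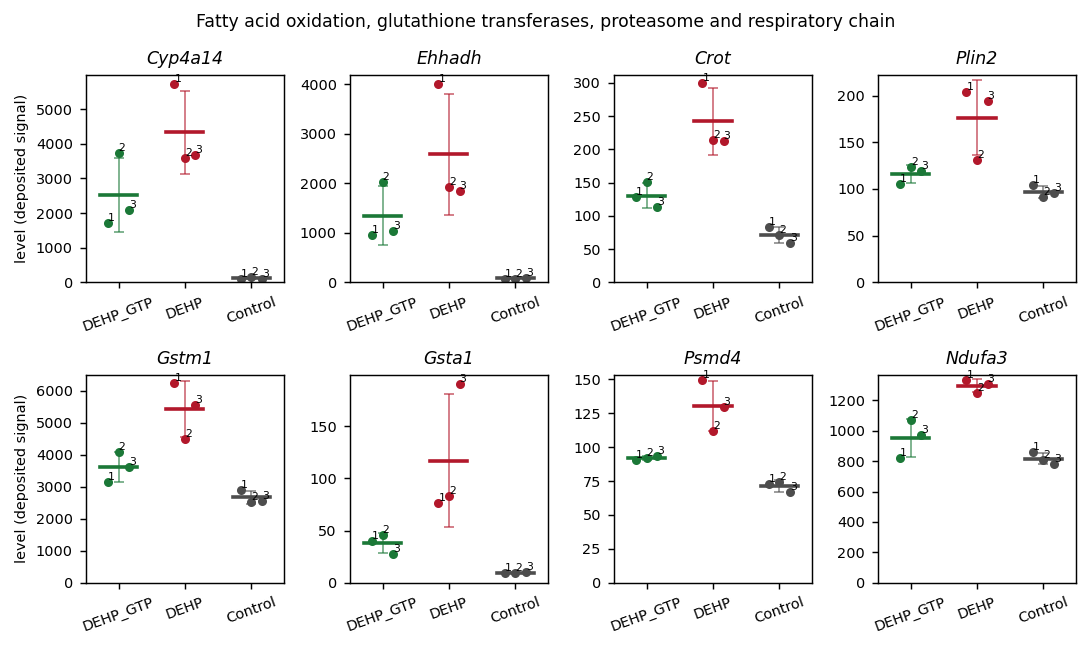
Deposited signal of 8 genes of fatty acid oxidation, lipid droplets, glutathione transfer, the proteasome and the respiratory chain in each library, with the replicate number beside each point, the group mean as a bar and its SD as whiskers (n = 3). The groups are separate in Crot (113 to 150.3 in DEHP_GTP, 213 to 301 in DEHP) and overlap in Cyp4a14 and Ehhadh, where DEHP replicate 1 is high (5717 and 3996).

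Enzymes of the NRF2 programme were mostly lower in DEHP_GTP. Of 45 tested members of 46 listed, 5 were above 0 and 40 below, with 1 separate and higher, 15 separate and lower, and a median of -0.31. In DEHP against Control the median was 0.60, and in DEHP_GTP against Control 0.35, beside 0.12 and 0.11 over all genes. Gsta1, a glutathione S-transferase, was at 40.0, 46.1 and 27.6 in DEHP_GTP livers, against 76.7, 83.1 and 190.1 in DEHP livers and 9.15, 9.21 and 9.97 in Control livers (log2 difference -1.50, SE 0.34, limma adjusted p = 0.142). Gstm1, another transferase, was at 3137, 4099 and 3624 in DEHP_GTP livers, against 6251, 4504 and 5546 in DEHP livers and 2916, 2539 and 2568 in Control livers (log2 difference -0.58, SE 0.14, limma adjusted p = 0.129). Gsta2 was at 140.2, 158 and 146 in DEHP_GTP livers, against 192, 214 and 227 in DEHP livers and 81.9, 61.2 and 91.2 in Control livers (log2 difference -0.51, SE 0.13, limma adjusted p = 0.147). In each the DEHP_GTP libraries lay between Control and DEHP. The Gsta and Gstm families hold near-identical copies, so reads may have been split between them. Gsr, glutathione reductase, was at 16.3, 19.7 and 17.4 in DEHP_GTP livers, against 31.1, 22.6 and 23.0 in DEHP livers and 16.3, 16.5 and 14.4 in Control livers (log2 difference -0.49, SE 0.12, limma adjusted p = 0.142).

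The textbook NRF2 reporters Nqo1 and Hmox1 did not separate. Nqo1 was at 5.17, 9.39 and 8.90 in DEHP_GTP livers, against 13.7, 8.79 and 11.9 in DEHP livers (log2 difference -0.52, SE 0.23) and Hmox1 at 9.73, 12.6 and 9.89 in DEHP_GTP livers, against 13.6, 9.39 and 11.4 in DEHP livers (log2 difference -0.08, SE 0.13). Osgin1, an oxidative stress-induced growth inhibitor, was the member that was separate and higher, at 136, 93.7 and 66.1 in DEHP_GTP livers, against 39.1, 38.6 and 40.3 in DEHP livers and 49.9, 47.5 and 57.4 in Control livers (log2 difference 1.24, SE 0.22, limma adjusted p = 0.0924). It was called without DEHP_GTP replicate 3 (log2 difference 1.50, limma adjusted p = 0.0068). Its DEHP_GTP libraries were above every Control library too. The antioxidant response element TGACNNNGC was in 12 of 39 promoters of the list (30.8%) and in 1444 of 8405 (17.2%) of all tested genes, on either strand. Shares as high or higher were found in core clock promoters (5 of 12, 41.7%), and iron and heme gene promoters were similar (7 of 23, 30.4%).

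Scavengers of superoxide and peroxide showed smaller differences. Of 24 tested, 7 were above 0 and 17 below, with 6 separate and lower and a median of -0.10. Gpx4, which reduces lipid peroxides, was at 602, 732 and 693 in DEHP_GTP livers, against 878, 822 and 809 in DEHP livers (log2 difference -0.31, SE 0.09, limma adjusted p = 0.158), and Sod1 at 2362, 2694 and 2411 in DEHP_GTP livers, against 2830.0, 2951 and 2778 in DEHP livers (log2 difference -0.20, SE 0.08, limma adjusted p = 0.284). Gpx1 overlapped (log2 difference -0.20). After rescaling to equal totals without the Mup genes the median of this list was 0.02, so its sign depended on the scaling. Ugdh, which makes the donor for glucuronidation, was at 97.6, 143 and 106 in DEHP_GTP livers, against 186, 148 and 158 in DEHP livers (log2 difference -0.51, SE 0.14, limma adjusted p = 0.149). Over 28 tested polyphenol-conjugating enzymes 16 were above 0 and 12 below, with a median of 0.03.

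Targets of CAR and PXR were split between the directions. Of 31 tested, 15 were above 0 and 16 below. There were 3 separate and higher and 3 separate and lower, near the shares over all genes, 8.89% and 10.4%. Alas1 and Por, 2 of the 3 that were higher, are also counted among the clock output genes. Cyp2b10, the main CAR reporter, was at 110.3, 73.7 and 87.8 in DEHP_GTP livers, against 103, 85.3 and 138 in DEHP livers and 20.8, 16.7 and 7.19 in Control livers (log2 difference -0.25, SE 0.37), and Cyp2b9 at 64.1, 218 and 70.7 in DEHP_GTP livers, against 284, 133 and 216 in DEHP livers and 0.30, 0.88 and 0.19 in Control livers (log2 difference -1.01, SE 0.51). Both overlapped, and all phthalate libraries were above all Control libraries. Cyp2b9 and Cyp2b10 belong to a family of close copies. Alas1, the rate-limiting enzyme of heme synthesis, was higher, at 269, 531 and 325 in DEHP_GTP livers, against 222, 169 and 167 in DEHP livers and 421, 394 and 310.3 in Control livers (log2 difference 0.96, SE 0.24, limma adjusted p = 0.15), and so was Por, the reductase that serves cytochromes P450, at 289.8, 392 and 348 in DEHP_GTP livers, against 232, 227 and 288 in DEHP livers (log2 difference 0.46, SE 0.13, limma adjusted p = 0.163).

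Subunits of large complexes were lower in DEHP_GTP by small amounts in most members. Of 37 proteasome subunits, which degrade ubiquitin-tagged proteins, 3 were above 0 and 34 below, 29 of them separate, with a median of -0.26. The separate share over all genes was 10.4%. Of 55 tested subunits of oxidative phosphorylation, 4 were above 0 and 51 below, 23 separate, with a median of -0.22. Of 56 cytosolic ribosomal proteins, 2 were above 0 and 54 below, 27 separate, with a median of -0.19. Psmd4, the ubiquitin receptor of the proteasome, was at 90.3, 92.3 and 93.2 in DEHP_GTP livers, against 149, 112 and 129.6 in DEHP livers and 72.9, 74.5 and 66.6 in Control livers (log2 difference -0.49, SE 0.10, limma adjusted p = 0.117). Ndufa3, of respiratory complex I, was at 822, 1072 and 969.5 in DEHP_GTP livers, against 1334, 1249 and 1308 in DEHP livers and 859.5, 808 and 785 in Control livers (log2 difference -0.45, SE 0.10, limma adjusted p = 0.127). Rpl38, a protein of the large ribosomal subunit, was at 1238, 1759.9 and 1552 in DEHP_GTP livers, against 1990.1, 2121 and 2107 in DEHP livers and 1455, 1350.0 and 1423 in Control livers (log2 difference -0.46, SE 0.12, limma adjusted p = 0.142). Psmd11 differed by -0.33, Psma6 by -0.29, Ndufa5 by -0.38, Uqcrq by -0.33 and Rplp1 by -0.31, all separate.

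These lists depended on how libraries were scaled. Rescaled to equal totals, the proteasome median was -0.18 with 10 subunits separate and lower, and without the Mup genes in the total it was -0.14 with 12 lower and 1 higher. The oxidative phosphorylation median became -0.14 and -0.09, and the ribosomal median -0.10 and -0.06. Quantile normalization gave -0.19, -0.12 and -0.10. The sign of these 3 medians held in every scaling tried, relative to an all-gene median of -0.013 as deposited, 0.053 at equal totals and 0.090 without the Mup genes.

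Transcript length moved with the difference. Across 10157 tested genes with a length in GENCODE vM21, matched by symbol, the log2 difference and the longest transcript had a Spearman correlation of 0.366, given as a description because genes share the libraries. The fifth of genes with the shortest transcripts (median 1236.5 bases) had a median difference of -0.13, and the fifth with the longest (median 6377.5 bases) one of 0.06. The median length was 1001 bases for oxidative phosphorylation subunits, 969.5 for ribosomal proteins, 1541 for proteasome subunits and 1707 for NRF2 targets, against 2967 for all tested genes. Growth hormone axis genes (3859.5) and core clock genes (3675), with list medians above 0, were longer. Endothelial markers (3747) were long with a median below 0, and male-biased genes (1719) short with a median above 0. The part of length in these results was not tested.

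**Figure D4:**
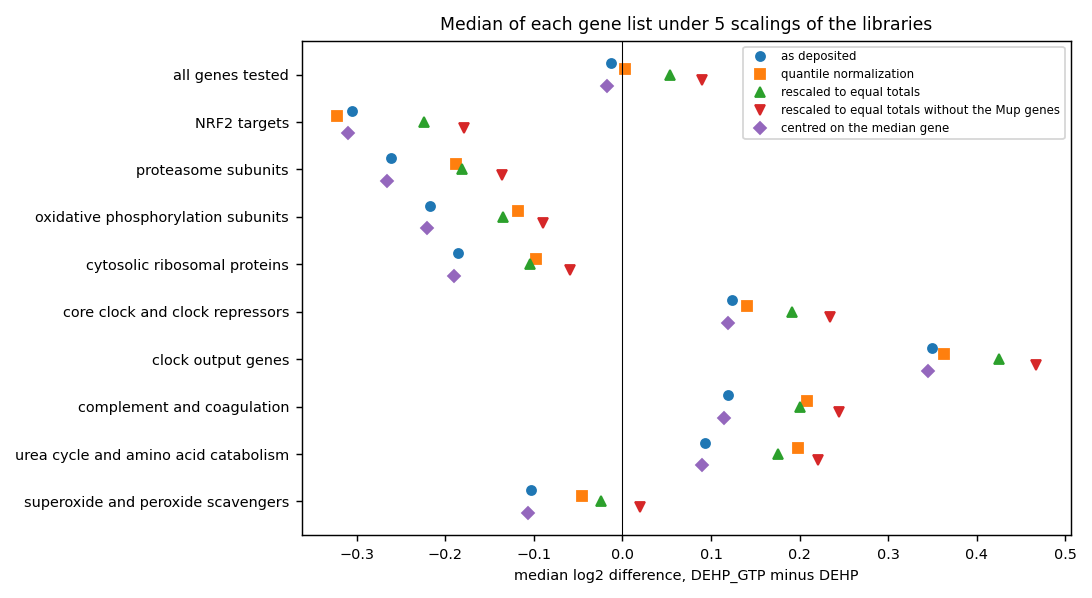
Median log2 difference, DEHP_GTP minus DEHP, of all tested genes and of 9 lists under 5 scalings of the libraries. Scalings to equal totals shift every median to the right, to 0.053 and 0.090 for all genes, and without the Mup genes that of superoxide and peroxide scavengers lies above 0 (0.02, against -0.10 as deposited), whereas the other 8 lists keep their sign.

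Genes of glucose and amino acid metabolism were mixed in direction. Of 32 tested genes of glucose production and glycolysis 18 were above 0 and 14 below, with 6 (18.8%) separate and higher and 1 separate and lower. Gys2, liver glycogen synthase, was at 83.0, 96.6 and 101 in DEHP_GTP livers, against 49.5, 72.2 and 51.8 in DEHP livers and 92.2, 98.7 and 109 in Control livers (log2 difference 0.70, SE 0.14, limma adjusted p = 0.11). Pklr, liver pyruvate kinase, was at 42.1, 36.5 and 40.2 in DEHP_GTP livers, against 18.3, 24.8 and 27.9 in DEHP livers and 97.2, 81.8 and 107 in Control livers (log2 difference 0.73, SE 0.15, limma adjusted p = 0.116), higher than in DEHP but below every Control library. Gbe1, the glycogen branching enzyme, differed by 0.26 and was separate. Gys2 was therefore within the Control range in 2 of 3 DEHP_GTP libraries, and Pklr in none. Of 45 tested genes of the urea cycle and amino acid catabolism 32 were above 0 and 13 below, with 4 (8.89%) separate and higher, 0 separate and lower, and a median of 0.09. The share of all genes that were separate and higher was the same, 8.89%. Cps1, the entry enzyme of the urea cycle, was at 808, 723 and 818 in DEHP_GTP livers, against 449.6, 596 and 688 in DEHP livers and 650.1, 662 and 663 in Control livers (log2 difference 0.46, SE 0.13, limma adjusted p = 0.171).

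Lists of secreted plasma proteins were not all on 1 side of 0. Of 50 tested complement and coagulation genes 41 were above 0 and 9 below, with 7 (14%) separate and higher, 1 separate and lower, and a median of 0.12. Of 25 tested apolipoprotein and lipoprotein assembly genes 11 were above 0 and 14 below, with 2 separate and higher and 5 separate and lower. Acute phase proteins had 15 above 0 and 17 below, and secreted hepatokines 13 and 13. C6, of the terminal complement complex, was at 69.8, 29.4 and 47.3 in DEHP_GTP livers, against 14.8, 28.9 and 25.8 in DEHP livers and 98.7, 104 and 93.4 in Control livers (log2 difference 1.01, SE 0.33, limma adjusted p = 0.233). Coagulation factor F5 was at 66.6, 52.6 and 57.0 in DEHP_GTP livers, against 44.1, 48.6 and 38.4 in DEHP livers (log2 difference 0.42, SE 0.11, limma adjusted p = 0.147), and complement factor C2 at 39.0, 38.9 and 37.8 in DEHP_GTP livers, against 31.8, 32.3 and 24.0 in DEHP livers (log2 difference 0.40, SE 0.10, limma adjusted p = 0.147). The counts of separate and higher members grew to 15 of 50 for complement and coagulation and 9 of 45 for amino acid catabolism at equal totals, where 1564 of all genes were separate and higher. Apoa2, an apolipoprotein of high-density lipoprotein, was lower at 35858, 40127 and 36284 in DEHP_GTP livers, against 49577, 50192 and 55485 in DEHP livers and 32072, 30531 and 32822 in Control livers (log2 difference -0.47, SE 0.09, limma adjusted p = 0.0924), and Apoa5, which promotes triglyceride clearance, was higher at 604, 632 and 645 in DEHP_GTP livers, against 509, 541 and 524 in DEHP livers (log2 difference 0.26, SE 0.09, limma adjusted p = 0.221).

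Among stress and signalling genes the largest separate differences were in single members rather than whole lists. Gdf15, a stress hormone, was at 5.90, 3.01 and 6.20 in DEHP_GTP livers, against 8.79, 13 and 11.5 in DEHP livers and 2.31, 2.55 and 2.44 in Control livers (log2 difference -1.03, SE 0.22, limma adjusted p = 0.122). Ddit4, an inhibitor of mTOR signalling that stress and glucocorticoids induce, was at 1.85, 3.95 and 5.63 in DEHP_GTP livers, against 10.8, 10.8 and 16.8 in DEHP livers and 3.85, 6.43 and 5.08 in Control livers (log2 difference -1.58, SE 0.32, limma adjusted p = 0.127). In both, every DEHP_GTP library was below every DEHP library. Of 25 tested genes of the integrated stress response 5 were above 0 and 20 below. In that list 2 were separate and higher and 5 separate and lower, beside 8.89% and 10.4% of all genes. Chac1, which degrades glutathione, was among those higher, at 4.77, 4.83 and 3.95 in DEHP_GTP livers, against 2.05, 2.79 and 2.92 in DEHP livers and 3.96, 3.69 and 2.81 in Control livers (log2 difference 0.63, SE 0.13, limma adjusted p = 0.122). Xbp1, a transcription factor of the unfolded protein response, was at 139, 113 and 93.7 in DEHP_GTP livers, against 77.6, 74.3 and 73.7 in DEHP livers and 123, 109 and 98.8 in Control livers (log2 difference 0.59, SE 0.13, limma adjusted p = 0.127).

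In the p53 and apoptosis list, 30 were tested, 10 above 0 and 20 below. Separate groups were found for 2 that were higher and 5 that were lower, beside 8.89% and 10.4% of all genes. Bax, which permeabilizes mitochondria in apoptosis, was at 20.5, 23.0 and 24.1 in DEHP_GTP livers, against 41.0, 28.9 and 30.2 in DEHP livers and 20.9, 22.1 and 21.6 in Control livers (log2 difference -0.53, SE 0.12, limma adjusted p = 0.127). The DEHP_GTP libraries were close to the Control libraries and below all DEHP libraries. Trp53inp1, a p53 target, was at 7.89, 10.5 and 15.0 in DEHP_GTP livers, against 25.9, 20.5 and 20.0 in DEHP livers and 7.45, 11.4 and 10.1 in Control livers (log2 difference -0.97, SE 0.22, limma adjusted p = 0.131). Cdkn1a, the cell cycle inhibitor p21, was at 4.67, 0.76 and 4.67 in DEHP_GTP livers, against 24.7, 3.73 and 12.9 in DEHP livers and 4.52, 5.28 and 2.15 in Control livers (log2 difference -1.63, SE 0.74), with DEHP replicate 2 below 2 of the DEHP_GTP libraries. Myc, a growth-promoting transcription factor, was higher at 8.25, 6.41 and 3.29 in DEHP_GTP livers, against 1.47, 1.18 and 1.96 in DEHP livers and 3.35, 4.22 and 2.23 in Control livers (log2 difference 1.40, SE 0.28, limma adjusted p = 0.122) and was called without DEHP_GTP replicate 3 (log2 difference 1.72, limma adjusted p = 0.0284).

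Further genes had the smallest p or the largest differences. Nuak2, a kinase related to AMPK, was at 4.05, 3.94 and 3.80 in DEHP_GTP livers, against 2.18, 1.99 and 1.86 in DEHP livers and 4.18, 3.47 and 3.45 in Control livers (log2 difference 0.71, SE 0.09, limma adjusted p = 0.0761). P2ry2, a receptor for extracellular ATP and UTP, was at 7.34, 5.99 and 6.33 in DEHP_GTP livers, against 4.03, 4.09 and 3.88 in DEHP livers and 7.29, 6.94 and 6.98 in Control livers (log2 difference 0.59, SE 0.09, limma adjusted p = 0.0761), and the protease Pcsk4 at 8.48, 8.65 and 9.29 in DEHP_GTP livers, against 4.71, 5.72 and 5.88 in DEHP livers and 9.61, 8.70 and 9.43 in Control livers (log2 difference 0.61, SE 0.09, limma adjusted p = 0.0761). In all 3 the DEHP libraries lay below every DEHP_GTP and Control library. Gm4952 was at 64.9, 59.0 and 61.8 in DEHP_GTP livers, against 114, 96.3 and 103 in DEHP livers and 34.9, 26.9 and 26.4 in Control livers (log2 difference -0.74, SE 0.11, limma adjusted p = 0.0761), lower than in DEHP and higher than in Control. Foxq1, a forkhead transcription factor, was at 17.1, 18.2 and 14.3 in DEHP_GTP livers, against 4.78, 3.48 and 4.06 in DEHP livers and 12.9, 8.76 and 3.90 in Control livers (log2 difference 1.78, SE 0.33, limma adjusted p = 0.122). Phlda1 was at 113, 85.7 and 54.8 in DEHP_GTP livers, against 14.8, 22.2 and 31.5 in DEHP livers and 44.4, 30.7 and 15.1 in Control livers (log2 difference 1.84, SE 0.46, limma adjusted p = 0.158). Both Foxq1 and Phlda1 were above every Control library in all 3 DEHP_GTP libraries. Spon2, a secreted matrix protein, was at 2.36, 2.66 and 3.29 in DEHP_GTP livers, against 12.6, 5.18 and 10.1 in DEHP livers and 0.88, 0.94 and 0.72 in Control livers (log2 difference -1.38, SE 0.25, limma adjusted p = 0.0975), and Tubb2a, a beta-tubulin, at 27.6, 19.1 and 23.4 in DEHP_GTP livers, against 87.5, 36.5 and 68.0 in DEHP livers and 20.2, 17.0 and 21.4 in Control livers (log2 difference -1.34, SE 0.29, limma adjusted p = 0.131).

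Most other genes named whatever their values overlapped between the groups. Cyp7a1, the rate-limiting enzyme of bile acid synthesis, was at 25.1, 47.0 and 27.0 in DEHP_GTP livers, against 14.2, 20.7 and 36.8 in DEHP livers and 41.1, 48.5 and 49.6 in Control livers (log2 difference 0.50, SE 0.35). Cyp3a11, the main PXR target, was at 4975, 4532 and 4055 in DEHP_GTP livers, against 4519, 5471 and 5283 in DEHP livers (log2 difference -0.17), and Cyp4a10 at 1842, 3591 and 1961 in DEHP_GTP livers, against 5582, 3347 and 3364 in DEHP livers (log2 difference -0.76). Serpina12, the adipokine vaspin, was at 0.39, 0.09 and 0.53 in DEHP_GTP livers, against 0.02, 0.24 and 0.13 in DEHP livers and 10.8, 7.67 and 13.4 in Control livers, and Enho, the hepatokine adropin, at 5.33, 4.81 and 4.01 in DEHP_GTP livers, against 4.65, 4.04 and 5.27 in DEHP livers and 14.1, 22.7 and 14.7 in Control livers. Both were below every Control library in all 6 phthalate libraries. Apoa4 and G0s2, an inhibitor of triglyceride lipase, had log2 differences of 0.20 and 0.14. Alb, albumin, was separate, at 41539.5, 41296 and 46969.9 in DEHP_GTP livers, against 40517, 39717 and 38289 in DEHP livers and 50506, 55555 and 50193 in Control livers (log2 difference 0.13, SE 0.09). Fgf21, a PPARA-driven hepatokine, did not reach the filter and was at 0.45, 0.45 and 0.71 in DEHP_GTP livers, against 2.49, 0.74 and 0.10 in DEHP livers.

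Inflammation and fibrosis genes showed little difference at these levels. Of 29 tested interleukin, chemokine and NF-kB response genes 1 was separate, Ripk2, a kinase of innate immune signalling, at 2.68, 2.57 and 2.86 in DEHP_GTP livers, against 2.04, 2.01 and 1.71 in DEHP livers (log2 difference 0.34, SE 0.09, limma adjusted p = 0.143). Of 32 tested acute phase proteins 1 was separate, Hamp (hepcidin), with a log2 difference of 0.25. Saa1, an acute phase apolipoprotein, was at 38.6, 52.0 and 107 in DEHP_GTP livers, against 140.2, 32.8 and 50.6 in DEHP livers (log2 difference -0.04). Il1b, encoding interleukin 1 beta, was at 0.51, 1.26 and 0.58 in DEHP_GTP livers, against 3.02, 0.35 and 0.42 in DEHP livers. Tnf did not reach the filter and was at most 0.14 in any DEHP_GTP library and 0.10 in any DEHP library. Of 21 tested fibrosis and matrix genes, fibronectin (Fn1) was separate and higher (log2 difference 0.35, SE 0.09, limma adjusted p = 0.136), the galectin Lgals1 was separate and lower (-0.50), and the collagen Col1a1 overlapped (log2 difference -0.09).

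Markers of other cell types were examined beside these results. Of 29 tested markers of liver sinusoidal endothelial cells 3 were above 0 and 26 below, 7 of them separate, with a median of -0.18. The summed level of all 30 listed markers of these cells was 229, 193 and 216 in DEHP_GTP, against 244, 225 and 298 in DEHP. Clec4g, a lectin of these cells, was at 37.9, 31.5 and 28.1 in DEHP_GTP livers, against 40.7, 41.6 and 58.9 in DEHP livers and 43.6, 40.5 and 34.6 in Control livers (log2 difference -0.51, SE 0.16, limma adjusted p = 0.191). Of 24 tested Kupffer cell and macrophage markers 4 were above 0 and 20 below. The 1 separate marker, Slc40a1, was higher in DEHP_GTP (log2 difference 0.31), and 0 were separate and lower. The summed level of the 27 such markers with deposited values was 369.7, 545 and 376 in DEHP_GTP, against 558, 389.8 and 464 in DEHP. Periportal hepatocyte markers had 15 above 0 and 5 below with a median of 0.11, and pericentral markers 12 and 12 with a median of 0.01. None of the 20 stellate cell and 9 cholangiocyte markers tested was separate.

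Blood markers varied between libraries of both groups. The summed level of all 16 listed red blood cell markers with deposited values, 8 of them tested, was 1908, 2013 and 1258 in DEHP_GTP. In DEHP it was 861, 3686 and 1911. For 33 lymphocyte and neutrophil markers, 9 of them tested, it was 164, 134 and 150.0 in DEHP_GTP. In DEHP it was 222, 93.0 and 194, with DEHP replicate 2 the lowest library. Nkg7, of natural killer and cytotoxic T cells, was at 0.44, 0.23 and 0.33 in DEHP_GTP livers, against 1.31, 0.92 and 1.43 in DEHP livers and 0.77, 1.02 and 0.91 in Control livers (log2 difference -0.73, SE 0.12, limma adjusted p = 0.0824). Nkg7 reached the filter level of 1 only in DEHP replicates 1 and 3 and Control replicate 2. It was thus tested only through libraries outside DEHP_GTP, which favours a lower level in DEHP_GTP. The defining T cell transcripts Cd3e, Cd8a and Cd4 were at most 0.28 in the 6 DEHP_GTP and DEHP libraries. Adipocyte markers summed to 2411, 1411 and 2059 in DEHP_GTP, against 1235, 2194 and 1627 in DEHP, mostly through Car3, which hepatocytes also express. The part of these cell types in the gene results was not tested.

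Which genes were called depended on which libraries and scaling were used. Without DEHP replicate 2 limma called 86 genes (0.828%), 34 higher and 52 lower, and without DEHP_GTP replicate 3 it called 7 (0.0674%). The 7 were Cish, Onecut1, Osgin1, Myc and Nrep higher and Tsc22d3 and Mrnip lower. In all 7 the library left out was the DEHP_GTP library nearest DEHP, so its removal widens the difference by construction. Rescaled to equal totals, it called 5 (0.0481%), all higher, namely Nuak2, Pcsk4, Per3, P2ry2 and Slc22a7. These 5 were also among the 38 (0.366%) called with totals computed without the Mup genes, and among the 86. Using only the 6 DEHP_GTP and DEHP libraries, it called 1 gene (0.00963%), Foxq1 (limma adjusted p = 0.00766), which was also the 1 gene called without Control replicate 3 (0.00963%). Without DEHP replicate 1 it called 5 (0.0481%), described with the other observations.

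Direction over all genes followed the scaling too. Of genes at an unadjusted p under 0.05, 39.9% were higher as deposited, 52.2% after quantile normalization, 73.6% at equal totals, 86.2% at equal totals without the Mup genes and 37.3% after centring on the median gene. Library totals averaged 796639 ± 6607 in DEHP_GTP and 843344 ± 28596 in DEHP (SD, n = 3 each). An exact permutation test of that difference gave p = 0.1, the smallest it can give with 3 libraries against 3.

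**Figure D5:**
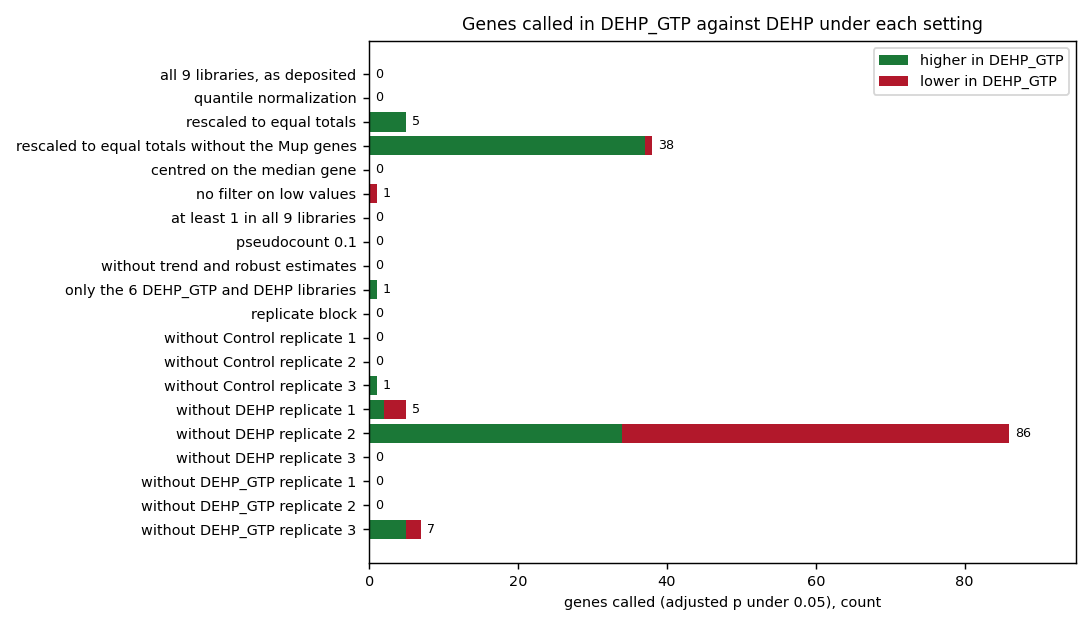
Number of genes called by limma at an adjusted p under 0.05 in DEHP_GTP against DEHP, as deposited and under 19 alternatives, with higher and lower genes stacked. The longest bars are 86 without DEHP replicate 2 and 38 at equal totals without the Mup genes, and 11 of the alternatives give 0.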

How the data were processed

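Liver messenger RNA was measured in 9 libraries. Per the labels' protocols, beads with oligo(dT) captured the mRNA, which was fragmented before random priming. In the submitters' processing notes the build mm9 and the tools CASAVA 1.7 and limma appear, with no order or role. Which aligner, counter and annotation were used is not stated there. The authors deposited 1 non-negative signal per symbol and library, with 2 decimals. From its values it is of the FPKM or TPM kind, so absolute depth is unknown and no counting interval is given. Of 18148 symbols, 1212 were at 0 throughout.

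Groups and replicate numbers came from the sample titles, and the deposited columns headed Treatment are the DEHP_GTP libraries. Log2(signal + 1) of 10388 genes, each at or above 1 in at least 3 libraries, was fitted with limma 3.58.1 (R 4.3.3, trend and robust) on all 9 libraries. P-values were adjusted by Benjamini-Hochberg over all genes. A replicate block, 4 rescalings, 2 other filters, a pseudocount of 0.1, limma without trend and robust estimates, only the 6 libraries compared and leaving out each library were alternatives. The code was tested on simulated data with known differences.

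Members and the 45 gene lists were chosen with earlier results of these data known. Named genes were the 5 with the smallest p, the 8 highest and 8 lowest differences with separate groups, an unadjusted p under 0.05 and a higher group averaging at least 5, provisional symbols left out, up to 4 separate members with the smallest p of each list, up to 10 genes called in each alternative, and 35 fixed liver genes whatever their values. Some genes that the rule names are not reported here. Genes named outside this rule were chosen after their values were seen: list members named beside a small count or in a paired comparison, such as Ghr, Igf1, Arntl, Clock and the Mup genes. Promoters are RefSeq sequences on GRCm38.p6, found by symbol for 8405 of the 10388 tested genes.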

Additional observations from a re-analysis of the deposited data

How the results depend on the processing

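The number of genes called was the result most open to processing. It was 0 as deposited, 5 at equal totals, 38 at equal totals without the Mup genes, 1 without a filter on low values (of 16936 genes; H3c11, -0.82, listed at 0 in all DEHP_GTP and Control libraries) and 1 in only the 6 libraries compared. Leaving out 1 library gave 0 to 86, the highest without DEHP replicate 2. Genes at an unadjusted p under 0.05 stayed within 1.5 times the 1524 as deposited. Same-numbered DEHP_GTP and DEHP libraries did not deviate together (correlations -0.263, -0.221 and -0.044), and a fit with the replicate number as a block called 0 genes, with 1363 at an unadjusted p under 0.05.

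No named gene was called as deposited, so keeping its side of the threshold means only that it was again not called. Most named genes were chosen by their differences, and the alternatives share most libraries, so the next counts are no separate support. Of 3326 values of 176 named genes under the alternatives, 3240 kept their direction and side of the threshold, 67 passed it and 19, of 9 genes with small or overlapping differences, had the other sign. At equal totals without the Mup genes these were Hspa4 (0.027), Hmox1 (0.036) and Saa1 (0.082), at equal totals Saa1 (0.038), and after quantile normalization Saa1 (0.019). With 1 library left out, log2 differences ranged from -0.203 to 0.040 for Hmox1, from -0.110 to 0.481 for Fasn, from -0.096 to 0.317 for G0s2, from -0.065 to 0.107 for Enho, from -0.365 to 0.073 for Nr1d1, from -0.488 to 0.543 for Saa1, from -0.446 to 0.341 for Il1b and from -0.301 to 0.137 for Col1a1. List medians moved by more than the spread between replicates in 30 of 855 values, over 14 of 45 lists. The cause was not tested. Counts of separate members under each scaling were added after the data were seen. Read depth is unknown, so low genes such as Nkg7, Arntl and Serpina12 carry an unmeasured counting error.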

Other observations

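Genes of iron and heme handling were the list, among those not described so far, with the most separate members. Of 32 tested, 8 were separate and higher and 6 separate and lower, beside 8.89% and 10.4% of all genes. The list's median was -0.05 as deposited and 0.07 at equal totals without the Mup genes. Id1, a target of the bone morphogenetic protein signal that drives hepcidin, was at 15.2, 20.4 and 13 in DEHP_GTP livers, against 10.5, 8.43 and 5.62 in DEHP livers and 10.2, 11.1 and 6.05 in Control livers (log2 difference 0.92, SE 0.27, limma adjusted p = 0.187). Slc40a1, the iron exporter ferroportin, was at 33.7, 27.8 and 29.3 in DEHP_GTP livers, against 25.9, 26.1 and 20.8 in DEHP livers and 26.9, 28.2 and 26.9 in Control livers (log2 difference 0.31, SE 0.10, limma adjusted p = 0.204). Ftl1, the ferritin light chain, was lower, at 6003, 8149.9 and 6252 in DEHP_GTP livers, against 10919, 8579 and 9475 in DEHP livers and 4854, 4840.1 and 5598 in Control livers (log2 difference -0.51, SE 0.13, limma adjusted p = 0.147), and so was Blvrb, a biliverdin reductase (log2 difference -0.42). Cpox, of heme synthesis, differed by -0.31 and Fech, its last enzyme, by 0.18. The metallothionein Mt1 was at 1379, 411 and 1003 in DEHP_GTP livers, against 1695, 735 and 562 in DEHP livers, with overlap and the highest DEHP_GTP library in replicate 1.

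Among 31 tested bile acid genes, Nr1h4, the bile acid receptor FXR, was separate and higher (0.29) and Hsd3b7, of bile acid synthesis, separate and lower (-0.39). Of 24 tested cell cycle and DNA replication genes, Mcm2, Mcm4 and Lig1 of the replication machinery were separate and lower (-0.69, -0.34 and -0.29). Their levels were low, at 0.46 to 0.67, 0.68 to 0.77 and 0.64 to 0.99 in DEHP_GTP livers. In DEHP livers they were at 1.09 to 1.83, 1.00 to 1.37 and 1.11 to 1.41. None of these genes reached the filter level of 1 in any DEHP_GTP library. Lig1 reached it in the DEHP libraries only, so it was tested only because it was high in DEHP. The filter therefore favoured a lower level in DEHP_GTP, and these separations are no support for a difference. Mcm7 and Aurka were separate and lower too, and Myc separate and higher. The shares over all genes were 10.4% lower and 8.89% higher. Of 23 tested immediate early genes, Klf10, Maff and Myc were separate and higher and Btg1 and Sgk1 separate and lower. A few transcripts with near-identical copies differed within the DEHP group. Rpl23 was at 175, 214 and 216 in DEHP_GTP livers, against 250.1, 66.6 and 57.6 in DEHP livers, whereas Rpl37rt was at 26.2, 31.9 and 35.1 in DEHP_GTP livers, against 17.5, 114 and 119.5 in DEHP livers. DEHP replicate 1 stood apart from DEHP replicates 2 and 3 in both, on the high side in Rpl23 and on the low side in Rpl37rt. In Control livers Rpl23 was at 165, 176 and 181 and Rpl37rt at 21.6, 26.7 and 15.8. DEHP replicate 1 was thus nearer to the Control and DEHP_GTP levels of both genes than DEHP replicates 2 and 3 were. The symbols LOC100044627 and LOC100862455 had identical values, 189, 216 and 211 in DEHP_GTP livers, against 248, 566 and 525 in DEHP livers. Gpcpd1, a glycerophosphodiester phosphodiesterase, was at 49.7, 51.0 and 51.6 in DEHP_GTP livers, against 11.9, 30.5 and 31.9 in DEHP livers, again with DEHP replicate 1 apart. These transcripts made up the 5 genes called without DEHP replicate 1.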
